A study of Mus musculus with 11 samples.

Results

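Mammary tumours of untreated MMTV-Neu+/- mice were profiled against RNA of whole mouse, and the 6 arrays of these tumours, out of 11 arrays of the series used here, are described below by gene and by pathway. The members were chosen by their label as tumours without treatment, not by any measured value. In these mice the Neu oncogene, the rat form of the receptor gene Erbb2, is driven by the promoter of the mouse mammary tumour virus, which is active chiefly in mammary epithelium. The other 5 arrays hold tumours of MMTV-Neu+/- mice given the carcinogen dimethylbenzanthracene (DMBA), so all 11 tumours carry the transgene and no normal mammary gland was used here. The labels give neither the age of the mice nor whether each tumour came from a mouse of its own, and the series title speaks of female mice. The titles of the 6 samples each carry another number, with nothing to say that it marks a mouse. The p-values therefore cover the variation among these 6 samples alone, part of which may be technical.

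Each array is a 2-colour hybridization of 1 tumour with the same reference, and each value is a log2 ratio of tumour over whole mouse reference. A ratio above 0 thus marks a gene that takes a larger share of tumour RNA than of a pool of all mouse tissues, and a ratio below 0 a smaller share. It ranks genes by enrichment and not by abundance, and it says nothing about normal mammary gland. The labels give Cy3 for the reference, but the dye field of the tumours holds the name of a kit, so the direction was read from organ genes. The sources used here do not give the base of the log either, and base 2 was taken from the range of the values. The median of 17 liver genes lay between -4.50 and -3.96 on the 6 arrays, that of 16 skeletal muscle genes between -3.07 and -2.32, and that of 14 brain genes between -2.24 and -1.49. Tumour over reference is the likely direction, and every sign below rests on it.

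Over all 16887 genes, 60.9% differed from the reference at an adjusted p under 0.05 in limma's moderated test (Benjamini-Hochberg adjustment over all genes), 28.8% higher and 32.1% lower. Calls of 2-fold or more made up 6.8% above the reference and 15.6% below it. The median of all genes was 0, and these shares are the background against which each count of called genes is to be read. "Higher" and "lower" below mean called by this test, and every adjusted p is from it. No swap of dyes between tumour and reference stands in the labels. An effect of the dyes on a gene that repeats on every array would enter its mean ratio and was not tested. Calls with small ratios are to be read with this limit.

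ERBB2 is a receptor tyrosine kinase that has no ligand of its own and pairs with other ERBB receptors, and its signal runs through the RAS and ERK kinases and through PI3K and AKT. Tumours driven by Neu in mice arise from the luminal layer of the mammary epithelium, the layer that faces the milk duct and produces milk. The luminal markers were mostly above the reference: of 14 measured, 10 were higher and 1 lower, with a median of 1.60, with Epcam, a cell adhesion molecule of epithelia, at 2.61 ± 0.23 (SD, n = 6, as for all such values below), Krt18 at 2.17 ± 0.21 and Krt8 at 1.90 ± 0.34. The exception was the keratin Krt19 at -3.84 ± 0.44. Markers of myoepithelium, the contractile outer layer, had a median of -2.35 with 11 of 12 lower.

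Apart from milk, keratin and marker genes, the 20 highest genes stood 11-fold to 25-fold above the reference. C5ar2, a receptor for the complement fragment C5a, headed them, and its values ran from 3.50 to 5.12 with a median of 4.87, or 25-fold on average (adjusted p = 5.14e-08). Galnt3, an enzyme that starts mucin-type sugar chains, ran from 4.15 to 5.02 with a median of 4.74 (24.6-fold, adjusted p = 3.14e-09). Plet1, a surface protein of epithelial progenitors, Ano1, a calcium-activated chloride channel, and Gabrp, the pi subunit of the GABA-A receptor, had medians of 4.64, 4.44 and 4.25. For Ano1 the tumours spanned only 4.10 to 4.59, while for C5ar2 untreated 6 stood lowest. Also in this set were Acsl4, which couples arachidonic acid to coenzyme A, at 4.23 ± 0.52, the transcription factors Tfap2c and Gata3 at 3.77 ± 0.11 and 3.61 ± 0.29, and Inhbb, which encodes a subunit of activin B, at 3.86 ± 0.65. Casp12, a caspase of the endoplasmic reticulum, stood at 3.88 ± 0.39, Klc3, a kinesin light chain, at 3.74 ± 0.10, Mtss1, a protein of membrane and actin, at 3.48 ± 0.28, the water channel gene Aqp5 at 3.46 ± 0.40 and Ier3, an early response gene of ERK, at 3.47 ± 0.54. The remaining 6 were Mansc1, Hhipl2, St8sia6, Chrna10, Vmn1r231 and Olfr1221. Only called genes with 1 sign in all 6 tumours could enter this set, so that all 20 were above 0 throughout is no result. Their adjusted p, small by the same choice, lay between 6.4e-10 and 4.84e-05.

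Of these 20, 4 were uneven between tumours. The sialyltransferase gene St8sia6 ran from 1.83 to 5.41 with a median of 3.63, lowest in untreated 1 and highest in untreated 6. Chrna10, a nicotinic receptor subunit, was at 1.25 in untreated 2 and between 4.07 and 4.94 in the other 5 tumours. Vmn1r231, of the vomeronasal receptor family, and Olfr1221, of the olfactory receptor family, were likewise lowest in untreated 2, at 1.64 and 1.15, against medians over all 6 of 4.31 and 3.95. Each of the 20 highest genes is read by a single array feature, so no reading by another feature stands beside it.

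**Figure D1:**
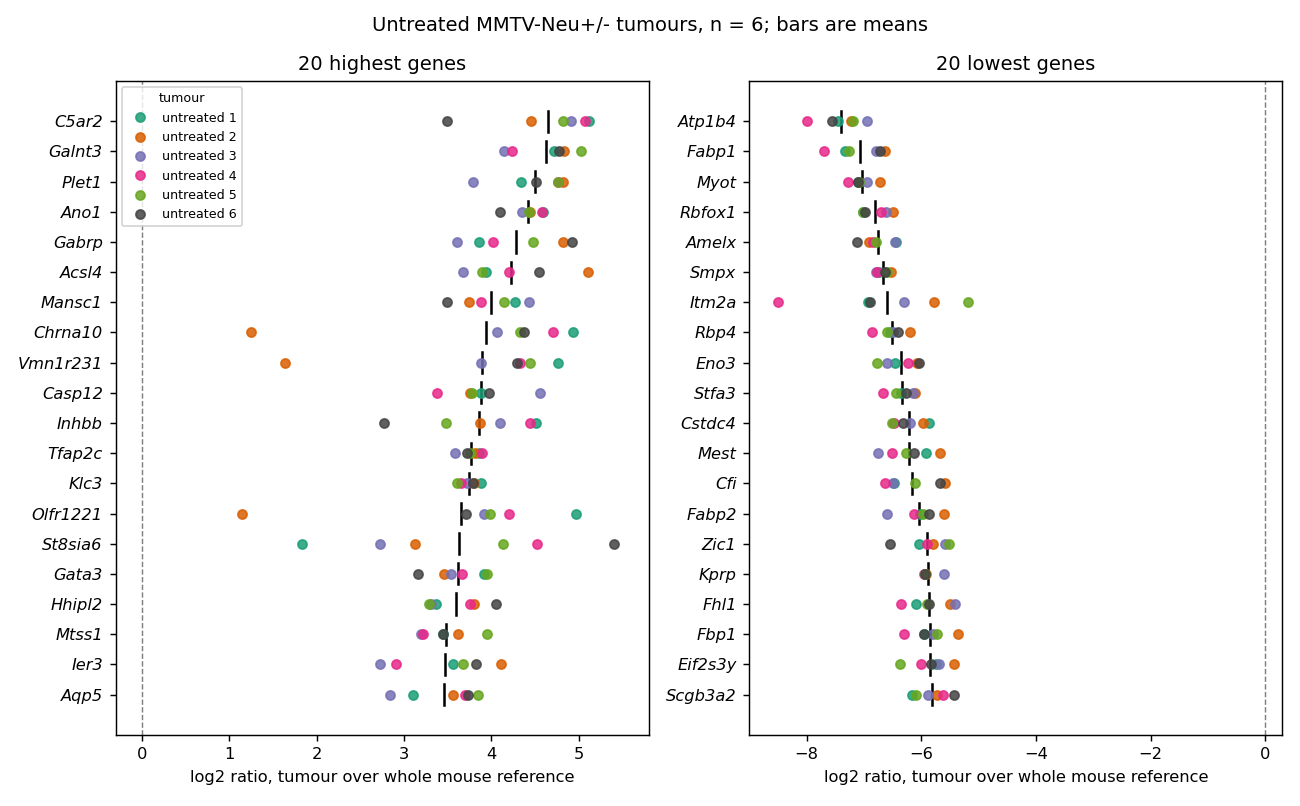
Log2 ratio of tumour over whole mouse reference for the 20 highest and the 20 lowest genes outside the milk, keratin and marker lists. Each point is 1 of the 6 untreated tumours and each bar the mean. Only called genes with 1 sign in all 6 tumours were eligible, so no point crosses 0. Chrna10, Vmn1r231 and Olfr1221 are set apart in untreated 2. The highest point of any of the lowest genes is that of Itm2a in untreated 5, at -5.19.

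The means of the 20 lowest genes ran from -7.39 to -5.82, or 168-fold to 56.4-fold below the reference, and each was below 0 in all 6 tumours. Genes known from muscle were Atp1b4, Myot, Smpx, Eno3 and Fhl1, among which Smpx was at -6.68 ± 0.10. Genes known from liver, gut or kidney were Fabp1, Fabp2, Rbp4, the gluconeogenesis gene Fbp1 at -5.85 ± 0.31 and the complement regulator gene Cfi at -6.16 ± 0.44. Rbfox1, which directs splicing in neurons and muscle, stood at -6.80 ± 0.23, Zic1, a transcription factor of the cerebellum, at -5.90 ± 0.37, Amelx, the enamel protein amelogenin, at -6.76 ± 0.27, and Scgb3a2, an airway secretoglobin, at -5.82 ± 0.28. The stefin genes Stfa3 and Cstdc4, the imprinted gene Mest, the skin gene Kprp and Itm2a completed the set. Eif2s3y lies on the Y chromosome and ran from -6.38 to -5.43 with a median of -5.79. All 6 tumours were thus far below the reference for this Y-linked gene, in a series whose title names female mice. Itm2a varied most, from -8.49 in untreated 4 to -5.19 in untreated 5.

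Among receptors and ligands of the ERBB family, Erbb2 itself led. Its values ran from 0.86 to 3.56 with a median of 3.06, a mean of 2.74 ± 1.03 or 6.67-fold (adjusted p = 6.78e-05). Untreated 2 stood apart at 0.86, whereas the other 5 tumours lay between 2.40 and 3.56; without untreated 2 the mean was 3.11. The sources used here do not say whether the single feature reads the mouse gene, the rat transgene or both. Egfr, the partner receptor that binds EGF, was higher in every tumour at 1.62 ± 0.56 (3.07-fold, adjusted p = 5.75e-05). Erbb3, the partner that recruits PI3K, was not called and ran from -1.22 in untreated 2 to 0.82 in untreated 4, at 0.27 ± 0.78 (adjusted p = 0.375). Without untreated 2 its mean was 0.57 (adjusted p = 0.00637), and its first feature alone gave 0.37 (adjusted p = 0.0158). Erbb4 lay near the reference, with a 95% interval of the mean of -0.18 to 0.28. Of the ligands, Egf was higher at 1.95 ± 1.57 (adjusted p = 0.00676), with 5 of 6 tumours above 0 and untreated 6 at -0.74. Nrg4, Nrg3, Hbegf and Epgn were lower, by -0.79 to -0.67. The call of Epgn was lost without untreated 2 (-0.57, adjusted p = 0.0518). Over the whole list, of 18 measured, 7 were higher and 4 lower, with a median of 0.14, and 61.1% of its members were called in either direction.

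Genes that ERK signalling induces were mostly above the reference. Of 17 measured, 13 were higher and 2 lower, with a median of 0.87, and the median in single tumours lay between 0.75 and 0.99. Etv1, a transcription factor of the ETS family, ran only from 2.67 to 2.79 with a median of 2.72, the narrowest spread among the genes named here, at 6.6-fold (adjusted p = 2.83e-09). Its relatives Etv4 and Etv5 were at 1.65 ± 0.42 and 1.55 ± 0.39, and Phlda1 was at 2.54 ± 0.21. Dusp6, the phosphatase that switches ERK off, was at 2.22 ± 0.32 (4.66-fold). The lower members were Egr1 at -0.63 ± 0.48 and Spry1 at -0.36 ± 0.37. The call of Spry1 did not hold when any of untreated 1, 2, 4, 5 or 6 was left out (adjusted p from 0.0653 to 0.113). Fosl1 lay at the reference (0.057 ± 0.15, interval -0.14 to 0.25).

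Other receptor tyrosine kinases lay on both sides of the reference, as all genes did (28.8% higher, 32.1% lower). Of 35 measured, 12 were higher and 16 lower, with a median of -0.24. Kit, the receptor for stem cell factor and a marker of luminal progenitors, ran from 2.89 to 3.52 with a median of 3.30 (9.26-fold, adjusted p = 9.59e-09), and all 6 tumours lay within 1 log2 unit of each other. Ltk was at 1.99 ± 0.40, the collagen receptor Ddr1 at 1.77 ± 0.29, Epha2 at 1.44 ± 0.96 and Epha7 at 1.39 ± 0.56. Pdgfra, a receptor of fibroblasts, was at -3.62 ± 0.55, Ddr2, a collagen receptor of mesenchyme, at -2.41 ± 0.40, the neuronal receptor Ntrk2 at -2.96 ± 0.49, Mst1r, the receptor for macrophage-stimulating protein, at -3.43 ± 0.33 and Igf1r at -2.06 ± 0.52. Fibroblast markers were low in the same tumours, with 17 of 17 lower and single tumours' medians from -3.39 to -2.58; their part in the values of Pdgfra and Ddr2 was not tested. In such bulk samples, fewer cells of a type and less RNA per cell cannot be told apart.

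The PI3K, AKT and mTOR genes as a group stood at the background. Of 21 measured, 6 were higher and 5 lower, with a median of -0.00050, and 9 of the 21 had a mean within 0.2 of 0. The exceptions in size were Pik3r1, which encodes the regulatory subunit p85-alpha, from 1.66 to 2.45 with a median of 2.07 (4.25-fold, adjusted p = 2.28e-07), and Pik3cb, a catalytic subunit, at 1.17 ± 0.46. Pik3r1 was above the reference in every tumour. Eif4ebp1, which restrains translation, and Inpp4b, a phosphatase that opposes PI3K, were at -0.91 ± 0.24 and -0.88 ± 0.38.

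In the Wnt pathway, of 40 measured, 12 were higher and 22 lower, with a median of -0.37. The secreted Wnt antagonists Wif1, Dkk3, Sfrp2 and Sfrp4 were at -4.59 ± 0.69, -4.02 ± 0.61, -3.44 ± 0.40 and -2.60 ± 0.36, and Nkd1, a feedback inhibitor that Wnt signals induce, at -3.48 ± 0.48. Above the reference were the co-receptors Lrp5 at 2.47 ± 0.54 and Lrp6 at 1.21 ± 0.51, the receptor Fzd9 at 2.04 ± 0.51 and Rnf43, a ligase that removes Wnt receptors from the surface, at 2.36 ± 0.17. Wif1 ran from -5.16 to -3.28 with a median of -4.73, with untreated 2 least low, and Rnf43 ran from 2.16 to 2.67 with a median of 2.32, with the tumours close together.

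In the TGF-beta and BMP pathway, of 37 measured, 6 were higher and 19 lower, with a median of -0.48. Inhbb, for activin B, ran from 2.77 to 4.50 with a median of 3.99 (14.6-fold, adjusted p = 2.98e-07), and was lowest in untreated 6. Tgfb3, a TGF-beta ligand, was at 2.69 ± 0.76 and highest in untreated 4 at 3.86. The ID genes, which encode inhibitors of helix-loop-helix factors and respond to BMP, parted: Id2 was at 1.94 ± 0.40, but Id1 and Id4 were at -3.81 ± 0.37 and -3.95 ± 0.26. Id1 ran from -4.36 to -3.39 with a median of -3.80, below the reference in every tumour. The secreted activin and BMP binders Fstl1 and Fst were at -4.30 ± 0.72 and -2.33 ± 0.25, and the ligand Bmp3 at -2.13 ± 0.32. The receptors Tgfbr1 and Tgfbr2 had means within 0.2 of 0.

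Notch genes lay on both sides of the reference, as all genes did (28.8% higher, 32.1% lower). Of 21 measured, 7 were higher and 9 lower, with a median of -0.30. Hey1, a target gene that represses transcription, ran from 3.08 to 3.35 with a median of 3.26 (9.36-fold, adjusted p = 1.82e-09), whereas its relative Hey2 was at -0.57 ± 0.29. Among ligands, Dll3 and Dll1 were at 1.48 ± 0.49 and 1.48 ± 1.03, with Dll1 at -0.086 in untreated 2, and Jag2 was at -2.90 ± 0.29. Dtx1, a modulator of Notch in lymphocytes, was at -3.07 ± 0.38. Of 14 Hedgehog genes, 2 were higher and 6 lower, with the intracellular inhibitor Sufu at 1.09 ± 0.25 and the surface proteins Gas1 and Hhip at -1.78 ± 0.24 and -1.73 ± 0.35.

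Hormone and nuclear receptors held a single member that was higher by 2-fold. Of 23 measured, 11 were higher and 8 lower, with a median of 0.15. Nr4a1, an immediate early nuclear receptor, was at 1.69 ± 0.57, and the glucocorticoid receptor gene Nr3c1 at 0.75 ± 0.24. Esr1, for estrogen receptor alpha, was higher by a small amount, 0.29 ± 0.16 (1.22-fold, adjusted p = 0.0173), and all 6 tumours lay between 0.046 and 0.50. Pgr, for the progesterone receptor, was not called and stood at -0.30 ± 0.32 (adjusted p = 0.0576), though without untreated 6 it was lower (-0.41, adjusted p = 0.0123). Lowest were Rxrg at -4.28 ± 0.95, a retinoid X receptor of muscle and brain, Nr2f1 at -4.22 ± 0.42, and the lipid sensors Ppara and Pparg at -2.26 ± 0.26 and -1.94 ± 0.24. For Rxrg, untreated 6 stood apart at -2.37, with the other 5 tumours between -4.83 and -4.49. Adipocyte markers, whose cells express Pparg, were lower for 11 of 12, with single tumours' medians from -4.60 to -4.03, and their part in the Pparg value was not tested.

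Transcription factors of epithelium were mostly above the reference. Of 24 measured, 17 were higher and 2 lower, with a median of 1.11, and 13 were at least 2-fold higher. Elf5, the factor that directs alveolar differentiation in the mammary gland, ran from 3.30 to 4.24 with a median of 3.92 (14.6-fold, adjusted p = 5.46e-09). Tfap2c ran from 3.58 to 3.90 with a median of 3.78, and Gata3, needed for the luminal fate, from 3.17 to 3.95 with a median of 3.60. For these 3 genes the lowest value in any tumour was 3.17, of Gata3. Ehf, an epithelial ETS factor, was at 3.06 ± 0.51, Sox10, a factor of neural crest and of mammary progenitors, at 2.85 ± 0.20, and Grhl2, which maintains epithelial junctions, at 1.68 ± 0.29. The lower members were Foxa1, the pioneer factor of estrogen receptor, at -1.99 ± 0.21 and Sox9 at -0.72 ± 0.12. Foxa1 ran from -2.21 to -1.60 with a median of -2.02, below the reference in all 6 tumours.

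Junction and polarity genes followed the same direction at smaller size. Of 33 measured, 21 were higher and 4 lower, with a median of 0.85. The claudins Cldn3 and Cldn4, which seal tight junctions, were at 2.68 ± 0.18 and 2.18 ± 0.24, Marveld2 at 1.85 ± 0.30, and the desmosome genes Pkp2 and Dsc2 at 1.94 ± 0.32 and 1.70 ± 0.42. Cdh1, for E-cadherin, was higher by 0.42 ± 0.31 (1.34-fold, adjusted p = 0.0135). The 4 lower members were Cdh3, for P-cadherin of the basal layer, at -0.59 ± 0.39, Tjp1 at -0.52 ± 0.28, the connexin gene Gja1 at -0.49 ± 0.16 and Pard6b at -0.43 ± 0.31.

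Channels and pumps of fluid-secreting epithelium formed a group with large ratios on both sides. Of 30 measured, 14 were higher and 11 lower, with a median of 0.36. Ano1, Gabrp, the potassium channel Kcnn4 at 3.29 ± 0.18, the sodium, potassium and chloride cotransporter Slc12a2 at 3.21 ± 0.30, Aqp5 and the pump regulator Fxyd3 at 3.19 ± 0.27 were all above the reference in every tumour, with a lowest value of 2.83, of Slc12a2. Kcnn4 ran from 3.08 to 3.58 with a median of 3.29, and Slc12a2 from 2.83 to 3.73 with a median of 3.17, highest in untreated 2. In contrast, the chloride channel Cftr was at -1.81 ± 0.30, the bicarbonate transporter Slc4a4 at -1.24 ± 0.28, the water channel Aqp3 at -4.49 ± 0.36 and Clca1, a channel regulator of goblet cells, at -5.05 ± 0.30. Aqp5 and Aqp3, both water channels, thus lay at opposite ends, with Aqp5 between 2.84 and 3.85 and Aqp3 between -5.11 and -4.15.

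Carriers of sugars, lactate and nucleosides differed by member. Of 17 measured, 7 were higher and 7 lower, with a median of 0.21. Slc2a1, the glucose carrier of most dividing cells, ran from 1.31 to 2.37 with a median of 1.71 (3.43-fold, adjusted p = 9.93e-06), and the nucleoside carriers Slc29a1 and Slc28a3 were at 2.75 ± 0.33 and 2.18 ± 0.73. Slc2a4, the insulin-responsive glucose carrier of muscle and fat, and Slc2a2, that of liver and pancreatic islets, were at -4.98 ± 0.37 and -4.93 ± 0.24. The lactate carriers Slc16a1 and Slc16a3 were lower, at -2.80 ± 0.71 and -2.27 ± 0.70. Slc16a1 was least low in untreated 2 and untreated 6, at -1.56 and -2.33, against -3.27 to -3.19 in the other 4.

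Among amino acid carriers none was higher by 2-fold. Of 23 measured, 5 were higher and 10 lower, with a median of -0.28. Slc7a5 and Slc3a2, the chains of the large neutral amino acid carrier, were at 0.81 ± 0.67 and 0.72 ± 0.30, and Slc7a11, the cystine carrier, at 0.63 ± 0.55. Slc3a1, a chain of the kidney and gut carrier, was at -3.61 ± 0.19, and Slc43a1 at -2.65 ± 0.32. Metal genes were lower for the greater part: of 25 measured, 4 were higher and 13 lower, with a median of -0.35. The copper oxidase ceruloplasmin (Cp) was at 1.53 ± 0.67, while its membrane relative Heph was at -2.96 ± 1.11, the metallothionein gene Mt2 at -2.51 ± 1.17 and the zinc carrier Slc39a4 at -2.36 ± 0.52.

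Enzymes that build mucin-type sugar chains were largely above the reference. Of 26 measured, 18 were higher and 6 lower, with a median of 1.0, and 13 were at least 2-fold higher. Beside Galnt3, the initiating enzyme Galnt10 was at 2.54 ± 0.22, C1galt1, which extends the chain to core 1, at 1.20 ± 0.50, and the sialyltransferases St6galnac2 and St6galnac4 at 1.75 ± 1.22 and 1.72 ± 0.58. The mucin gene Muc20 was at 2.56 ± 0.55. Lower members included Galnt6 at -2.32 ± 0.37 and St3gal1 at -1.45 ± 1.10. The galactosaminyltransferases parted within the family: Galnt3 lay between 4.15 and 5.02 and Galnt6 between -2.71 and -1.65. St3gal1 was uneven, -0.042 in untreated 1 and -2.81 in untreated 5. Muc1 was not called, at 0.30 ± 0.32 (adjusted p = 0.0621), and was higher without untreated 3 or untreated 4 (adjusted p = 0.0418 and 0.0443).

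Genes of the endoplasmic reticulum and its traffic were shifted upward by a smaller amount. Of 47 measured, 27 were higher and 7 lower, with a median of 0.37. Xbp1, the transcription factor that expands the secretory machinery, ran from 2.16 to 3.12 with a median of 2.60 (6.22-fold, adjusted p = 1.41e-07). The folding enzymes and chaperones Pdia4, Sdf2l1, Hsp90b1 and Pdia6 were at 1.88 ± 0.25, 1.68 ± 0.68, 1.23 ± 0.35 and 1.19 ± 0.42. The retrieval receptor Kdelr3 was the lowest, at -2.71 ± 0.62. For vesicle secretion, of 28 measured, 14 were higher and 4 lower, with a median of 0.41, with Rab25, an epithelial recycling GTPase, at 2.07 ± 0.31, and the granule adaptors Sytl1 and Sytl2 on opposite sides at 1.96 ± 0.44 and -1.82 ± 0.56.

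Of lysosomal genes 14 were not called, with 9 of 27 higher and 4 lower. Psap, the saposin precursor, was at 1.84 ± 0.19 and the cathepsin genes Ctss and Ctsd at 1.64 ± 0.55 and 1.01 ± 0.38, but Ctsk, the cathepsin of osteoclasts, at -3.76 ± 0.33 and Ctsc, which activates granule proteases of leukocytes, at -3.19 ± 0.43. Neutrophil markers were lower for 13 of 13 members, with single tumours' medians from -3.43 to -2.89, and their part in the Ctsc value was not tested. In the secreted protease system, of 23 measured, 10 were higher and 6 lower, with a median of 0.18. St14, the membrane protease matriptase, ran from 2.94 to 3.49 with a median of 3.02, and its inhibitor Spint2 from 2.71 to 3.38 with a median of 3.04. Both lay close together in the 6 tumours, whereas Spint1, another matriptase inhibitor, was at 0.45 ± 0.43 and the related proteases Tmprss6 and Tmprss4 were at -3.03 ± 0.17 and -2.33 ± 0.35. The call of Spint1 was lost without untreated 3 or untreated 5 (adjusted p = 0.0565 and 0.0607).

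Mitochondrial energy genes were mostly below the reference, and glycolysis was mixed. The respiratory chain had 0 of 42 genes higher and 34 lower, with a median of -0.70 and single tumours between -0.92 and -0.55. The lowest were Cox8b, Cox6a2 and Cox7a1, which encode muscle forms of cytochrome oxidase subunits, at -5.15 ± 0.86, -4.98 ± 0.18 and -2.16 ± 0.16. Without these muscle forms 31 of 39 were lower and the median was -0.65. Cytochrome c (Cycs) ran from -2.28 to -1.64 with a median of -2.10 (4.04-fold lower, adjusted p = 2.86e-07), Cyc1, a subunit of complex III, from -2.39 to -1.62 with a median of -1.94, and Ndufs1, of complex I, from -1.42 to -0.99 with a median of -1.22. None of the 6 tumours reached the reference for any of these 3 genes. Atp5a1, of the ATP synthase, lay at the reference (0.046 ± 0.19, interval -0.17 to 0.26).

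In the citrate cycle, of 27 measured, 3 were higher and 21 lower, with a median of -0.97. Citrate synthase (Cs) ran from -2.32 to -1.46 with a median of -1.85 (3.65-fold lower, adjusted p = 1.74e-06). Sdhb, a subunit of succinate dehydrogenase, was at -2.21 ± 0.17, Sucla2 at -1.90 ± 0.33 and Dld, a subunit shared by the pyruvate and oxoglutarate complexes, at -1.65 ± 0.48. The cytosolic malic enzyme Me1, which makes NADPH, went the other way and ran from 2.43 to 3.35 with a median of 2.68 (6.77-fold, adjusted p = 5.74e-08). Fatty acid oxidation was lower for 18 of 21 genes, 16 of them at least 2-fold, with a median of -1.46. Cpt1b, the muscle form of the enzyme that admits fatty acids to mitochondria, was at -3.80 ± 0.30, its liver form Cpt1a at -1.44 ± 0.37, and the ketone body enzyme Bdh1 at -3.79 ± 0.41. Acadm, the medium-chain dehydrogenase, ran from -2.33 to -1.91 with a median of -2.13, low in every tumour. Muscle and liver are rich in these transcripts and belong to a whole mouse; genes of skeletal muscle and liver themselves had medians of -2.77 and -4.38, and the part of these tissues in the mitochondrial ratios was not tested.

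Glycolytic genes differed by isoform. Of 19 measured, 8 were higher and 5 lower, with a median of 0.15, and the median in single tumours ran from -0.43 in untreated 3 to 0.74. Aldoc ran from 2.88 to 3.76 with a median of 3.31 (9.78-fold, adjusted p = 1.53e-08), while its muscle relative Aldoa was at -0.63 ± 0.15. Pfkl, the liver form of phosphofructokinase, was at 2.28 ± 0.16 and Pfkm, the muscle form, at -1.40 ± 0.29. Hk1, the broadly expressed hexokinase, was at 2.34 ± 0.62, and Hk2, that of muscle and many tumours, was not called, at -0.28 ± 0.46 (adjusted p = 0.159). Car9, a carbonic anhydrase induced by hypoxia, was at 1.93 ± 0.33, and Ldha was not called, at 0.15 ± 0.66 (adjusted p = 0.566), and higher only without untreated 3 (0.39, adjusted p = 0.0488). Pfkl was above the reference in every tumour, with a lowest value of 2.02, and Pfkm below it, with a highest value of -1.14.

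**Figure D2:**
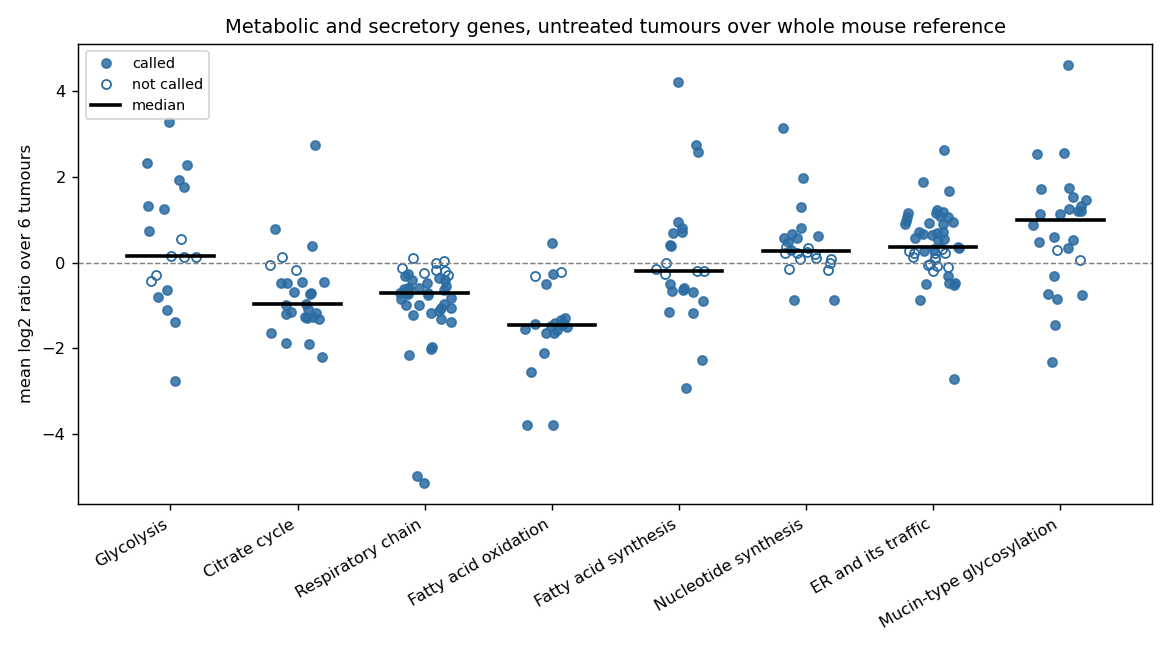
Mean log2 ratio over the 6 untreated tumours of each measured member of 8 metabolic and secretory lists. Each point is 1 gene, filled where called at an adjusted p under 0.05, and each bar is the list's median. Respiratory chain, citrate cycle and fatty acid oxidation lie mostly below 0, with medians of -0.70, -0.97 and -1.46, and mucin-type glycosylation mostly above it, with a median of 1.0.

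Lipid synthesis showed no common direction. Of 24 measured, 9 were higher and 10 lower, with a median of -0.20. Acsl4 ran from 3.68 to 5.11 with a median of 4.07, highest in untreated 2, and Srebf1, the transcription factor of lipid synthesis, from 2.19 to 2.83 with a median of 2.62 (6.02-fold, adjusted p = 2.84e-08). The fatty acid synthase gene Fasn was at 0.70 ± 0.30, Scd2 at 0.95 ± 0.55, but the acetyl-CoA carboxylase genes Acaca and Acacb were at -0.66 ± 0.29 and -2.27 ± 0.71, Fads1 at -1.19 ± 0.50 and Dgat2, which completes triglycerides, at -2.92 ± 0.28. In cholesterol synthesis, of 20 measured, 7 were higher and 4 lower, with a median of 0.048, with the late enzymes Dhcr7 and Ebp at 1.86 ± 0.29 and 1.41 ± 0.19 and the early enzyme Hmgcs1 at -2.26 ± 0.33. Dhcr7 lay between 1.43 and 2.18 and Hmgcs1 between -2.74 and -1.88.

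Nucleotide synthesis had more genes higher than lower. Of 24 measured, 10 were higher and 2 lower, with a median of 0.28. Pfas, a purine synthesis enzyme, was at 3.14 ± 0.88, with untreated 2 at 1.48 and the other 5 tumours between 2.88 and 3.90. Prps2, which makes the ribose donor, was at 1.98 ± 0.22 and the salvage kinase Dck at 1.30 ± 0.35. For serine, glycine and one-carbon metabolism, 6 of 18 were higher and 6 lower, none of them higher by 2-fold, and the liver enzymes Cth and Mat1a were lowest at -3.82 ± 0.21 and -3.61 ± 0.36. Polyamine and arginine metabolism had 3 of 19 higher and 8 lower: Odc1, the rate-limiting enzyme of polyamine synthesis, was at -1.80 ± 0.57, and Sat1, which starts polyamine breakdown, at 1.66 ± 0.43.

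Of 37 genes of glutathione metabolism and the NRF2 response, 6 were higher, 10 lower and 21 not called. The sensor and the factor, Keap1 and Nfe2l2, and the target genes Nqo1 and Gclm had means within 0.2 of 0. Single tumours ran from -0.85 to 1.26 for Nqo1 and from -0.665 to 0.54 for Keap1, so these 2 means are made of both sides. Mgst1, a membrane glutathione transferase, was at 1.16 ± 0.26 and Gsto1, of the omega class, at -3.11 ± 0.52. Drug and steroid metabolism of the liver type was lower for 24 of 28 genes, with Cyp2e1 at -4.16 ± 0.13 and the sulfotransferase Sult1a1 at -4.05 ± 0.30. Its higher members were Ephx1, the microsomal epoxide hydrolase, at 1.51 ± 0.30 and Arnt, the partner of the aryl hydrocarbon receptor, at 0.56 ± 0.12.

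Protein synthesis genes stayed close to the reference in size. Cytoplasmic ribosomal proteins had 9 of 49 higher, 23 lower and none at 2-fold in either direction, between Rps14 at -0.71 ± 0.16 and Rpl37 at 0.78 ± 0.28. Without untreated 5, 5 of them were higher. The median in single tumours ran from -0.45 to 0.042. Among tRNA synthetases 9 of 20 were higher and 5 lower, with Sars and Farsb at 1.20 ± 0.21 and 1.07 ± 0.28 and Aars at -0.80 ± 0.41. Ribosome biogenesis had 10 of 28 higher and 1 lower, the nucleolar protein gene Npm1 at -0.32 ± 0.15. For the proteasome, 7 of 32 were higher and 8 lower. Large ratios were limited to Psmb8 and Psmb9, subunits of the immunoproteasome that interferon induces, at 2.94 ± 0.91 and 2.26 ± 0.70. Psmb8 ran from 1.60 to 4.15 with a median of 2.98, lowest in untreated 2 and highest in untreated 4.

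Genes of the dividing cell were near the reference, which itself holds growing tissues to an unknown extent. In mitosis, of 24 measured, 12 were higher and 0 lower, with a median of 0.29, and none was higher by 2-fold. The kinase Plk1 ran from 0.74 to 1.23 with a median of 0.88 (1.88-fold, adjusted p = 2.69e-05), while the proliferation markers Mki67 and Top2a were not called, at -0.13 ± 0.29 (interval -0.39 to 0.13) and 0.10 ± 0.33 (interval -0.18 to 0.38). In DNA replication, of 36 measured, 13 were higher and 3 lower, with a median of 0.17, with the polymerase subunits Pole2 and Pold2 at 1.31 ± 0.30 and 1.22 ± 0.36 and the origin genes Orc6 and Orc1 at -0.87 ± 0.29 and -0.77 ± 0.45. The helicase genes Mcm2, Mcm4, Mcm5, Mcm6 and Mcm7 are named because their means lay within 0.2 of 0, so they do not describe the whole helicase.

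Regulators of the G1 phase showed larger ratios. Of 26 measured, 8 were higher and 13 lower, with a median of -0.36. Ccnd1, for cyclin D1, which mammary tumours of the Neu type need, was higher in every tumour, from 0.56 to 2.12 with a median of 1.24 (2.44-fold, adjusted p = 0.000352). Its relative Ccnd2 was at -3.03 ± 0.33. The cyclin-dependent kinase inhibitors Cdkn1c and Cdkn1a were at -3.95 ± 0.61 and -1.79 ± 0.93, and the locus Cdkn2a was higher at 0.64 ± 0.36. Cdkn1a ran from -2.99 in untreated 3 to -0.63 in untreated 6, below the reference in all 6.

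DNA repair genes leaned above the reference by small amounts. Of 43 measured, 22 were higher and 2 lower, with a median of 0.32. Atm, the kinase that senses DNA breaks, ran from 1.13 to 1.77 with a median of 1.45 (2.77-fold, adjusted p = 1.62e-06), and Bard1, the partner of BRCA1, was at 1.01 ± 0.39. The nuclease gene Ercc4 and the glycosylase gene Ogg1 were at 0.93 ± 0.16 and 0.90 ± 0.11. The lower members were Ercc5 at -0.46 ± 0.25 and Xpa at -0.33 ± 0.35. Xpa stood at the threshold (adjusted p = 0.0499), and its call was lost without any 1 of 5 tumours and under either rescaling of the arrays. Brca1 was higher at 0.43 ± 0.22 and Brca2 had a mean within 0.2 of 0.

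Target genes of p53 did not share a direction. Of 23 measured, 5 were higher and 10 lower, with a median of -0.27. Without untreated 3, 8 were higher. Ddb2, which recognises ultraviolet damage, was the highest at 2.48 ± 1.13, with untreated 1 at 4.18 and untreated 2 at 0.62. Tigar, which restrains glycolysis, was at 1.05 ± 0.29. The autophagy gene Dram1 was at -2.31 ± 0.25, Phlda3 at -2.02 ± 0.89, and the growth-arrest genes Cdkn1a and Btg2 at -1.79 ± 0.93 and -1.34 ± 0.31. Among apoptosis regulators, of 26 measured, 11 were higher and 5 lower, with a median of 0.27. Beside Casp12, the BH3-only gene Bik was at 2.56 ± 0.32, whereas the effector Bok was at -2.69 ± 0.22 and the apoptosome genes Apaf1 and Casp9 at -1.35 ± 0.27 and -0.96 ± 0.15. Bik ran from 2.16 to 3.01 with a median of 2.53 and Bok from -2.96 to -2.44 with a median of -2.67. Of 31 polycomb and chromatin enzymes 10 were higher and 7 lower, with the deacetylase gene Hdac11 at 1.82 ± 0.19 and the ligase gene Rnf2 at -1.11 ± 0.25.

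Imprinted and fetal growth genes had 18 of 21 lower and a median of -2.75. Mest, Meg3, Dlk1, H19 and Igf2 were at -6.21 ± 0.39, -4.36 ± 0.25, -4.24 ± 0.13, -3.19 ± 0.33 and -2.58 ± 0.18. Dlk1, an inhibitor of fat cell formation, ran only from -4.47 to -4.11 with a median of -4.18. The higher members were Phlda2, which limits placental growth, from 1.08 to 2.07 with a median of 1.77 (3.05-fold, adjusted p = 9.19e-06), and Igf2r, which clears the growth factor IGF2, at 0.73 ± 0.67. Phlda2 was above the reference in every tumour, and Igf2r in 5 of 6. Without untreated 1 the call of Igf2r was lost (0.63, adjusted p = 0.0522).

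The IGF system was mixed, with 5 of 15 higher and 9 lower. Without untreated 1, 3 were higher. The ligand Igf1 was at -2.08 ± 0.58 and the binding protein genes Igfbp1, Igfbp2 and Igfbp6 at -4.72 ± 0.39, -3.39 ± 0.65 and -2.59 ± 0.12. Igfbp5, a binding protein of the involuting mammary gland, ran from 1.55 to 2.63 with a median of 1.92 (3.94-fold, adjusted p = 3.04e-06), and Igfals, which holds IGF in the circulation and is chiefly a liver gene, from 2.29 to 3.08 with a median of 2.86. Both were above the reference in every tumour.

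Hox genes, which give cells their position along the body axis, were lower for 24 of 36 and higher for 3. By cluster, 7 of 10 Hoxa genes, 7 of 9 Hoxb genes, 5 of 8 Hoxc genes and 5 of 9 Hoxd genes were lower. Hoxa10 ran from -4.41 to -3.65 with a median of -4.21, and Hoxb5 from -3.11 to -2.67 with a median of -2.95. Hoxa5 and Hoxa7 were low in 5 tumours but near the reference in untreated 5, at -0.38 and 0.14, against -3.55 to -2.25 and -2.74 to -1.71 in the others. The higher members Hoxc5, Hoxa6 and Hoxd12 were at 0.54 ± 0.38, 0.53 ± 0.21 and 0.49 ± 0.30.

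Antigen presentation genes were mostly above the reference. Class I molecules display peptides cut by the proteasome on most cells, and class II molecules display engulfed material on antigen-presenting cells. Of 20 genes measured, 18 were higher and 1 lower. All 11 genes of class I processing were higher, with a median of 2.12, and 7 of 9 class II genes, with a median of 0.88. H2-D1 and H2-M3, of class I, were at 2.40 ± 0.80 and 2.22 ± 0.78, and the class I light chain B2m at 2.11 ± 0.78. B2m ran from 0.99 in untreated 2 to 3.08 in untreated 4. H2-DMb1, which loads class II molecules, ran from 3.13 to 3.79 with a median of 3.37 (10.5-fold, adjusted p = 4.78e-09), whereas the class II chain H2-Eb1 was at -0.24 ± 0.13. The call of H2-Eb1 was lost when untreated 1, 4, 5 or 6 was left out (adjusted p from 0.0587 to 0.0955).

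Interferon-stimulated genes were higher and uneven between tumours. Interferons induce antiviral genes, many of which carry an interferon-stimulated response element in their promoters. Of 20 measured, 15 were higher and 0 lower, with a median of 1.18. The median of the list was 2.52 in untreated 4, between 1.01 and 1.36 in untreated 1, 3, 5 and 6, and -0.0070 in untreated 2. This range of 2.52 was the widest of the 59 lists described. Gbp3, an interferon-induced GTPase, was at 2.43, 0.15, 1.99, 4.97, 2.12 and 2.13 in untreated 1 to 6, a mean of 2.30 ± 1.55 (adjusted p = 0.00256). Ifit1, which binds viral RNA, ran from -1.07 in untreated 2 to 3.16 in untreated 4 (1.32 ± 1.36, adjusted p = 0.0222). Isg15, a ubiquitin-like protein, was at 0.85 ± 0.94 (adjusted p = 0.0315) and Bst2, which tethers virus particles, was not called at 0.84 ± 1.28 (adjusted p = 0.0932). For all 4 genes untreated 2 was the lowest and untreated 4 the highest. Gbp2, Ifih1, Mx2 and Oasl2 were at 2.13 ± 0.34, 2.10 ± 0.90, 1.85 ± 1.12 and 1.62 ± 0.94, and Rsad2, at -0.62 ± 0.78, was not called (adjusted p = 0.0551). The calls of Ifit1 and Isg15 were lost when untreated 1, 3, 4 or 5 was left out, with adjusted p from 0.0502 to 0.0593 and from 0.0612 to 0.0910, and Bst2 was called without untreated 2 (1.15, adjusted p = 0.0306). Rsad2 was called lower without untreated 4 or untreated 5 (adjusted p = 0.0122 and 0.0302).

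The promoters of these genes are shown because the 4 genes shared their lowest and highest tumour and their upstream sequence carries letters of the response element. The windows are RefSeq sequence of GRCm38.p6, each from 200 bases before the gene's start up to the base before it, 5′ to 3′ on the gene's strand, and capitals mark matches to GAAANNGAAA on either strand, overlapping ones joined. Ifit1 lies on the plus strand at chr19:34640689-34640888, Isg15 on the minus strand at chr4:156200819-156201018, Gbp3 on the plus strand at chr3:142559844-142560043 and Bst2 on the minus strand at chr8:71537473-71537672.
Ifit1: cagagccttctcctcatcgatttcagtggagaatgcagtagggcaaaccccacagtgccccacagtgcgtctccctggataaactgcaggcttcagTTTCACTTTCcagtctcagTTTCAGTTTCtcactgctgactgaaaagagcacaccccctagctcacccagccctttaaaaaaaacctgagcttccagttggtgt
Isg15: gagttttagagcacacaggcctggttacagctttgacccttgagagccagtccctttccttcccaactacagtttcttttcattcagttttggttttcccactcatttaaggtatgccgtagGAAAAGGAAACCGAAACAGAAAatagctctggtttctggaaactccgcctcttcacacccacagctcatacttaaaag
Gbp3: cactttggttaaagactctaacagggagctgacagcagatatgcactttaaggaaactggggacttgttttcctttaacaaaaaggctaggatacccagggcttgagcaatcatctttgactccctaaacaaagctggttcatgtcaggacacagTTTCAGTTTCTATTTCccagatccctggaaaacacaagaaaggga
Bst2: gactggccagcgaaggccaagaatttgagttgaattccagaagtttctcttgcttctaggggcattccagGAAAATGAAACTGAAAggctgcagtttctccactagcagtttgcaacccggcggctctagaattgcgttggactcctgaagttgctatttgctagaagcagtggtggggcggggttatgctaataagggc
The windows of Ifit1, Gbp3 and Bst2 hold 2 matches each and that of Isg15 holds 3. RefSeq gives Gbp3 a second start, whose window held 0 matches, and the one with matches was chosen for print. Counting the 250 bases before each gene's start, or before any of its starts, 8 of 16 interferon list genes with a window held a match, against 451 of 13425 genes of the table with a window (3.36%). The list was made of genes known to respond to interferon, so this share describes the list and not the tumours. A match is a string of letters and was not tested as a binding site. Genes without a match, such as Ifih1 and Oasl2, were also higher, and Rsad2, with a match, was not called at -0.62.

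**Figure D3:**
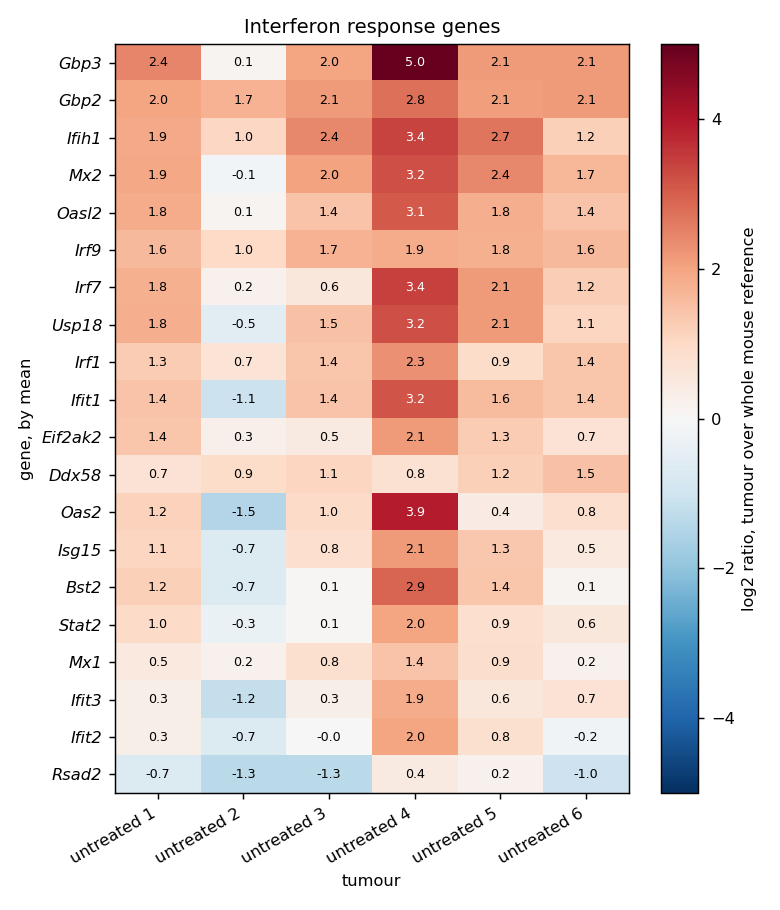
Log2 ratio in each of the 6 untreated tumours for the 20 measured interferon response genes, coloured from below the reference (blue) to above it (red) and ordered by mean. Untreated 4 is the reddest column, with a list median of 2.52, and untreated 2 the palest, with a list median near 0.

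Markers of immune cells did not share this direction across their lists. Of 16 macrophage markers 5 were higher and 6 lower, and tumour medians ran from -0.30 in untreated 1 to 0.55 in untreated 5. Over all genes, 28.8% were higher and 32.1% lower. T and NK cell markers had 5 of 16 higher and 5 lower, with tumour medians from -0.25 to 0.18, and B and plasma cell markers 2 of 12 higher and 4 lower. The T cell receptor genes Cd3e and Cd3g had means near the reference, at 0.10 ± 0.12 and 0.039 ± 0.62. Cd3g ran from -0.65 in untreated 2 to 0.94 in untreated 4. The costimulator Icos and the granule protease Gzmb were at 2.0 ± 0.83 and 1.34 ± 0.54. Icos and Gzmb were both lowest in untreated 2, at 0.43 and 0.51. The macrophage scavenger receptors Cd163 and Mrc1 were at -3.11 ± 0.58 and -2.84 ± 0.69, whereas the macrophage marker Cd14 was at 2.44 ± 0.63. On the macrophage list 2 members were higher and 3 lower by at least 2-fold, and on the T and NK list likewise 2 and 3. The part of these cells in the interferon and antigen presentation values was not tested. Endothelial markers were lower for 15 of 16, with a median of -1.23.

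Chemokines and their receptors lay on both sides of the reference, as did cytokines, complement and all genes (28.8% higher, 32.1% lower). Of 46 measured, 16 were higher and 18 lower, with a median of 0.051. The neutrophil attractant Cxcl1 was at 1.94 ± 0.58, Ccl5, which attracts T cells, at 1.78 ± 0.86 and Ccl8 at 1.73 ± 0.76, and Cxcl15, a lung chemokine, at -3.64 ± 0.20, Cxcl14 at -2.08 ± 0.94 and the scavenging receptor Ackr3 at -1.73 ± 0.23. Ccl5 was highest in untreated 4 at 3.09 and lowest in untreated 5 at 0.81. Cytokines and their receptors had 14 of 42 higher and 8 lower, with the oncostatin M receptor gene Osmr at 1.87 ± 0.41, Il15 at 1.44 ± 0.29 and Tnfrsf11a, the receptor RANK of mammary epithelium, from 0.99 to 1.82 with a median of 1.27. Its ligand gene Tnfsf11 was lower, at -0.40 ± 0.25 (adjusted p = 0.00940).

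Complement and acute phase genes lay on both sides of the reference. Of 34 measured, 9 were higher and 17 lower, with a median of -0.55. Lcn2, which withholds iron from bacteria, ran from 2.24 to 3.4 with a median of 3.28 (8.73-fold, adjusted p = 1.26e-07), lowest in untreated 3. The endotoxin receptor Cd14 was at 2.44 ± 0.63, Lbp at 1.77 ± 0.31 and the complement inhibitor Cd59a at 1.23 ± 0.15. Liver-made Hc, for complement C5, was at -5.44 ± 0.13, haptoglobin (Hp) at -4.63 ± 0.41, and C8a and C8b at -2.50 ± 0.49 and -2.72 ± 0.10. C5ar2, described above, was thus above the reference while Hc, for the precursor of its ligand, was below it in every tumour.

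**Figure D4:**
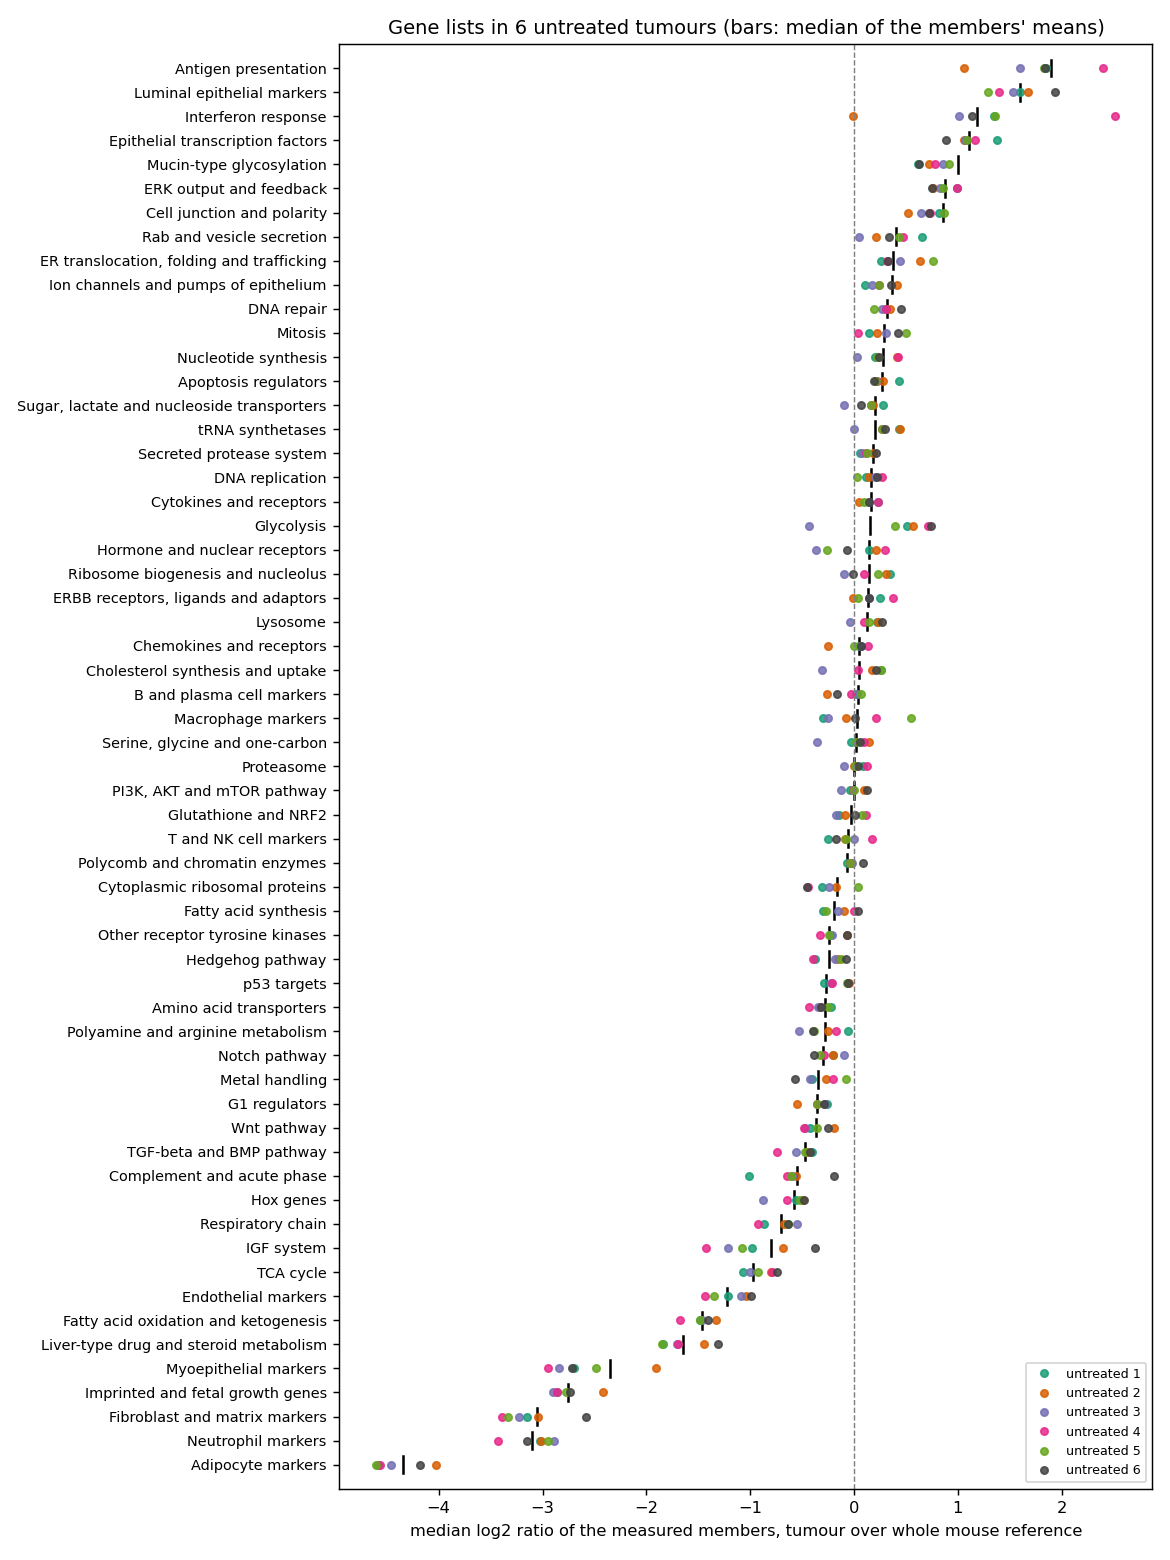
Median log2 ratio of the measured members of each of 59 gene lists in the 6 untreated tumours. Each point is the list's median in 1 tumour and each bar the median of the members' means over the tumours. Antigen presentation stands highest, with a bar at 1.90, adipocyte markers lowest, at -4.34, and the points of the interferon response are the most spread.

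The tumours were close to each other over all genes but differed in sets of genes. Pearson's r between tumours, across all 16887 genes, lay between 0.865 and 0.939, a description in which every array shares the reference. The median SD of a gene over the 6 tumours was 0.277 and the 95th percentile 0.697. Genes at least 2-fold away from the median of the other 5 tumours numbered 255 in untreated 1, 566 in untreated 2, 520 in untreated 3, 712 in untreated 4, 235 in untreated 5 and 751 in untreated 6. Untreated 1 and untreated 5 were thus nearest to the others.

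The 15 most variable genes, with SD of 1.88 to 2.26, are given as descriptions without a test. Several were high in untreated 2 and untreated 6 together. Emb, for the adhesion protein embigin, was at 3.38 and 3.52 in these tumours and between -1.51 and 1.22 in the other 4. Ppp2r2c, a regulatory subunit of phosphatase 2A, was at 1.10 and 1.11 against -3.33 to -2.61, and its relative Ppp2r2b at -0.39 and 0.65 against -4.00 to -2.80. Gpx2, an epithelial glutathione peroxidase, was at 3.19 and 3.91 against -0.72 to 1.38, Pigt, of the glycolipid anchor machinery, at 1.93 and 1.5 against -2.95 to -0.31, and Lars2, the mitochondrial leucyl-tRNA synthetase, at 2.09 and 0.80 against -2.82 to -1.20. For these 6 genes the values of untreated 2 and untreated 6 did not overlap those of the other 4 tumours, a split seen in the values and not a group of the labels. The genes were picked for their large SD and the pair after the values were seen. How many of all genes part these or any other 2 tumours was not counted, so the split marks no subgroup.

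Other variable genes marked other tumours. Odam, a protein of enamel and secretory epithelium, was at 4.88 in untreated 4 and between 0.051 and 1.89 elsewhere. Dcpp1, a salivary gland gene, was at 0.64 in untreated 6 and between -4.93 and -1.71 elsewhere, and the channel gene Trpm3 at -3.78 in untreated 2 and between 0.017 and 1.53 elsewhere. The interferon-induced genes Ifi27l2a and Iigp1 were likewise lowest in untreated 2 and highest in untreated 4, with lows of -2.08 and -0.89 and highs of 3.52 and 4.36. The set was completed by Cpe, Fetub, Gm5886 and Cabcoco1. Cpe, a prohormone-processing enzyme, was above the reference only in untreated 4 and untreated 6, at 1.10 and 0.60.

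Some genes were at the reference or below it in 1 tumour and far from it in the rest, or the reverse. In untreated 2, Ica1l was at -0.19 against 3.06 to 4.15 in the other 5 tumours and Chil3, a macrophage lectin, at -1.24 against 1.89 to 2.84. Untreated 2 was also lowest for Erbb2, Pfas, Chrna10, Vmn1r231 and Olfr1221. In untreated 1, C5ar1, the signalling receptor for C5a, was at -3.64 while the others lay between -0.014 and 0.43, and Bcas1 was at 1.69 against -1.43 to -1.04. In untreated 3, the testis gene Tex11 was at 3.48 against -0.90 to -0.14. Without the tumour that stood apart, the means were 0.18 for C5ar1 (adjusted p = 0.183), -1.30 for Bcas1 (adjusted p = 1.35e-05) and -0.56 for Tex11 (adjusted p = 0.00815). Each of these genes is read by a single feature, and the signal behind a ratio was not used here. Of the genes named here 16 are read by several features, which were averaged, and for 7 of them the features lay 1 log2 unit or more apart. Their lowest and highest feature means were -4.41 and -1.52 for Ntrk2, -2.46 and -0.0088 for Slc4a4, 0.71 and 2.66 for Grhl2, -3.24 and -1.59 for Ddr2, -2.01 and -0.68 for Apaf1, -2.76 and -1.46 for Igf1r, and -1.17 and -0.16 for Acaca. With the first feature of each gene alone, the calls of Slc4a4 (-0.0088, adjusted p = 0.944) and Acaca (-0.16, adjusted p = 0.337) were lost.

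**Figure D5:**
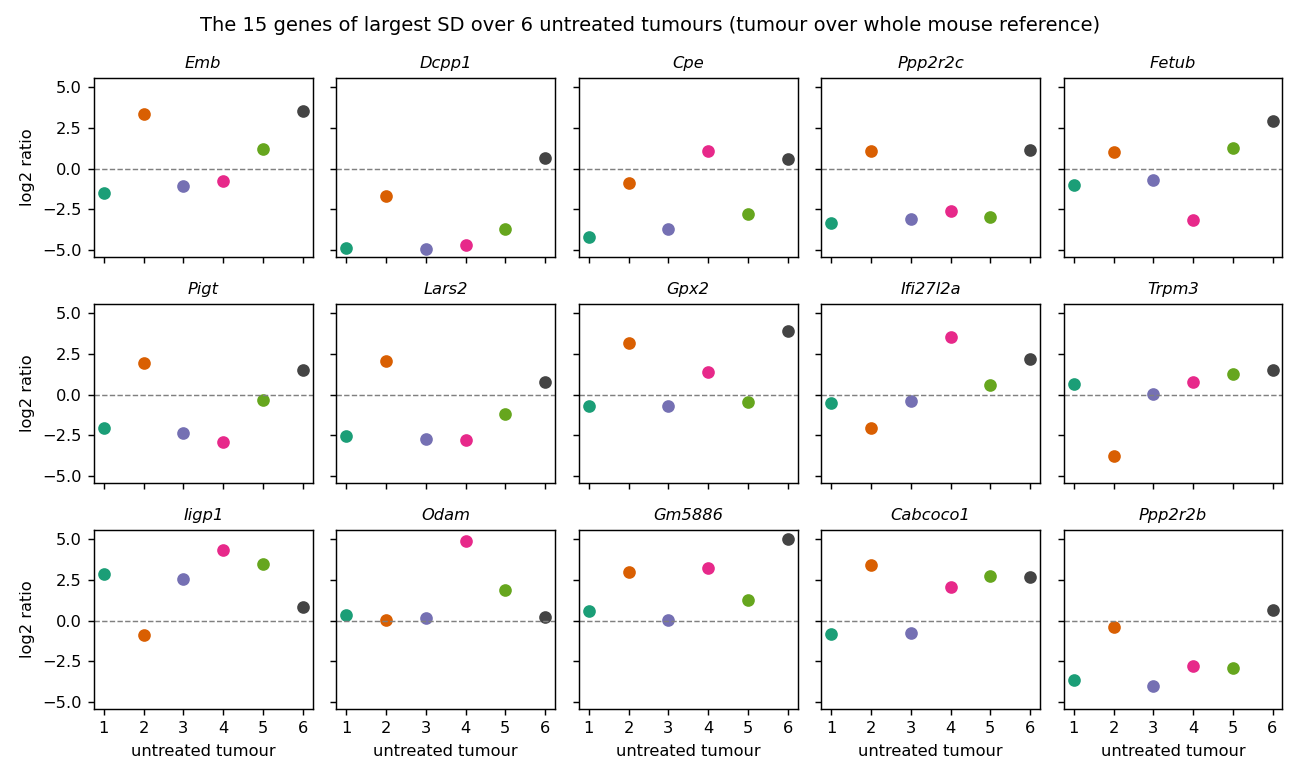
Log2 ratio in each of the 6 untreated tumours for the 15 genes of largest SD, 1 panel a gene, with the dashed line at the reference. Emb, Ppp2r2c, Pigt, Lars2, Gpx2 and Ppp2r2b stand higher in untreated 2 and untreated 6 than in the other 4 tumours, and Odam peaks in untreated 4 at 4.88.

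Beside these tumours, the 5 DMBA-treated tumours are given as values only, because their arrays hold another set of features and lie in a table processed separately, so that treatment and table cannot be told apart and no difference was tested. Both sets share the reference RNA. A pair of the DMBA-treated titles carries the same number, with nothing to say that it marks a mouse. The SDs of these 5 tumours may thus not stand for separate mice. All 20 of the highest genes had means above 0 there, from 0.97 to 5.45, and all 17 of the 20 lowest genes with a value there had means below 0, from -7.27 to -3.18. These genes were picked as extremes against the same reference, so equal signs were likely from the start. How many of all 16351 genes with values in both sets share a sign was not counted. Chrna10 stood at 0.97 ± 1.04 (SD, n = 5) there and at 3.94 ± 1.35 here, Vmn1r231 at 1.20 ± 1.01 and 3.89 ± 1.14, and Olfr1221 at 1.12 ± 0.48 and 3.65 ± 1.30. Icos was at -0.14 ± 0.19 there and 2.0 ± 0.83 here, and Pfas at 0.32 ± 0.33 and 3.14 ± 0.88. Ddb2 was at 0.079 ± 0.38 and 2.48 ± 1.13, and Ica1l at 0.36 ± 1.25 and 2.94 ± 1.58. These genes were lowest in untreated 2 and are read by 1 feature here. Others of that kind stayed high there, such as Erbb2 at 1.52 ± 0.17 and B2m at 3.16 ± 1.01. Signs differed for Sox9, at 2.09 ± 0.17 in DMBA-treated and -0.72 ± 0.12 in untreated tumours, and for Ctsc, at 0.80 ± 0.24 and -3.19 ± 0.43. Esr1 was at 2.98 ± 0.51 there over 11 features and at 0.29 ± 0.16 here over 1, and Esrp1, a splicing factor of epithelium, at 3.13 ± 0.13 and -0.14 ± 0.43. Gja1 was at -3.05 ± 0.32 there over 10 features and at -0.49 ± 0.16 here over 1. Interferon-stimulated genes were uneven there too, with Gbp3 at 2.85 ± 1.53 and Ifit1 at 2.22 ± 1.55.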

How the data were processed

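RNA of 6 tumours of untreated MMTV-Neu+/- mice and 5 of DMBA-treated mice was set against whole mouse reference RNA on 2-colour arrays, and all 11 arrays carry 1 tumour each. The values are log2 ratios of tumour over reference as deposited by the authors, centred near 0 on each array (medians of the untreated arrays from -0.013 to 0.008). The authors' background correction, normalization and filters stand in none of the sources used here, and the base and the direction were read from the values. Scanner intensities were not used here. The untreated table held 22575 features without missing values, of which 18658 carried 1 gene symbol in GEO's platform annotation, 30 several and 3887 none. Of the named features, 18445 were matched to current genes by Entrez identifier, and no symbol changed. Features of 1 symbol were averaged on each array, which gave 16887 genes, 1247 of them with several features.

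The mean ratio of each gene was tested against 0 with an intercept in limma 3.58.1 (lmFit and eBayes, R 4.3.3), with Benjamini-Hochberg adjustment over all 16887 genes and a call at an adjusted p under 0.05. The script was tested on simulated data first. The number of arrays limits the precision, and the signal behind each ratio is unknown here. The same fit was run with 1 feature per gene, after quantile normalization, with the arrays brought to one scale, with exact zeros set to missing, against 1.5-fold, with trend and robust eBayes, and without each tumour in turn.

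The 63 gene lists, 4 of which (milk and keratin genes, liver, skeletal muscle and brain) served only to be left aside or to read the direction, held 1723 members, 1600 of them measured. Members and lists were chosen with earlier results of these data known, so lists are described by counts and medians with no test of the list. The text names Erbb2, the 20 highest and 20 lowest called genes with 1 sign in all tumours outside milk, keratin, organ and cell marker lists, up to 5 called members of each list in each direction, the 15 genes of largest SD, genes that deviate most in 1 tumour, and list members within 0.2 of 0. Other list members were named after their values were seen, among them Erbb3, Etv5, Esr1, Pgr, Esrp1, Muc1, Hk2, Cdh1, Grhl2, Fasn, Acaca, Brca1, Tnfsf11, Igf2, H19, Spint1, Ifit1, Isg15, Bst2 and Rsad2. The 5 DMBA-treated tumours lie in a second table with 45220 features, and their means are given as values with no test between tables. Promoter sequences are from RefSeq.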

Additional observations from a re-analysis of the deposited data

Results flagged for a closer look

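In 27 of the 349 genes named here, 1 of the 6 tumours lay far from the rest by Dixon's test, which chance alone flags in about 1 in 20 groups. Part of these genes were named because 1 tumour deviated, so their number says nothing about the tumours.

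Over all genes, untreated 6 and untreated 4 held more genes at least 2-fold from the median of the others (751 and 712) than untreated 2 (566). The flagged genes are given by tumour, which does not rank the tumours, and those of untreated 2 come first. Ica1l was at -0.19 there and between 3.06 and 4.15 elsewhere, Chil3 at -1.24 against 1.89 to 2.84, and the channel gene Trpm3 at -3.78 against 0.017 to 1.53. The receptor genes Chrna10, Vmn1r231 and Olfr1221 were at 1.25, 1.64 and 1.15 there, and at least 3.71 in every other tumour. The T cell costimulator Icos was at 0.43 against 1.90 to 2.76, the Wnt antagonist Wif1 at -3.28 against -5.16 to -4.58, the matriptase inhibitor Spint1 at 1.26 against 0.12 to 0.50, and Erbb3 at -1.22 against 0.11 to 0.82.

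Untreated 1 stood apart for C5ar1 at -3.64, Bcas1 at 1.69 and the glutathione transferase gene Mgst1 at 0.66. Untreated 3 did so for Tex11 at 3.48, haptoglobin (Hp) at -5.41, Kprp at -5.60, Lcn2 at 2.24, Sox10 at 2.46 and the receptor gene Tgfbr2 at 1.31. Tgfbr2 lay between -0.65 and -0.055 in the other 5 tumours, so that its mean near the reference is made of both sides. Untreated 4 stood apart for the granule adaptor gene Sytl2 at -0.74, and untreated 5 for Hoxa7 at 0.14, Hoxd12 at 1.11 and the cystine carrier gene Slc7a11 at 1.73. Untreated 6 did so for Bard1 at 1.74, the chemokine gene Ccl8 at 3.16, Rxrg at -2.37 and the nucleoside carrier gene Slc29a1 at 3.37. For Rxrg, every tumour remained below the reference.

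For 4 of the 349 genes named here, every untreated tumour lay on one side of the reference and every DMBA-treated tumour on the other. The share among all 16351 genes with values in both sets was not counted, so this number cannot be read as few or many. Their means were -0.66 and 0.42 for Acaca, -3.19 and 0.80 for Ctsc, -0.43 and 0.13 for Pard6b, and -0.72 and 2.09 for Sox9, untreated first. These differences were not tested, because treatment and table cannot be told apart.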

How the results depend on the processing

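Against 1.5-fold in place of 0, 1295 genes were higher and 2761 lower, instead of 4863 and 5418. The 2-fold counts were 1090 and 2571 under that test. In the other settings with all 6 tumours, 4861 to 5033 genes were higher and 5382 to 5439 lower. Leaving out 1 tumour gave 4265 to 4667 higher, 4980 to 5312 lower, 1128 to 1199 higher and 2613 to 2674 lower by 2-fold, and an Erbb2 mean of 2.57 to 3.11. Over all alternatives the adjusted p of Erbb2 lay between 1.81e-06 and 0.000448. Of 118 counts of list members, 39 stayed within 1.5 times against 1.5-fold, and 110 or more in each other setting. Those that moved when a tumour was left out include the lower members of the PI3K list (3 instead of 5 without untreated 1, 3 or 5) and of the tRNA synthetases (3 instead of 5 without the same tumours), of T and NK cell markers (3 instead of 5 without untreated 5), and the higher B cell markers (1 instead of 2 without untreated 4 or 6).

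Of the 349 named genes, 47 lost their call against 1.5-fold, and 302 did not change. Signs turned only for genes near 0 or carried by 1 tumour. With its first feature alone Erbb4 was at -0.0485 instead of 0.05. Leaving out 1 tumour gave ranges of -0.021 to 0.0856 for Atp5a1, -0.0596 to 0.0134 for Brca2, -0.634 to 0.18 for C5ar1, -0.141 to 0.176 for Cd3g, -0.0294 to 0.105 for Erbb4, -0.529 to 0.686 for Fetub, -0.057 to 1.06 for Ifi27l2a, -0.159 to 0.0138 for Mcm6, -0.0164 to 0.137 for Mcm7, -0.173 to 0.249 for Nqo1, -0.559 to 0.316 for Tex11, -0.314 to 0.0786 for Tgfbr2, -0.0012 to 0.179 for Top2a and -0.223 to 0.841 for Trpm3. The cause was not tested.

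No paired analysis was possible because each tumour was tested against the shared reference, with no second group in the fit. A ratio against whole mouse RNA depends on what that RNA holds, so it shows neither abundance nor a change from normal gland. With 6 arrays and no signals, weak features cannot be told from strong ones. Most genes are read by 1 feature, and features of 1 named gene differed by up to 2.90 on the log2 scale (Ntrk2). Tumours are bulk tissue, their mice are not named, and every sign rests on the direction read from organ genes. Without a described swap of dyes, an effect of the dyes on a gene cannot be told apart from its expression, above all where the ratio is small.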
